A study of Rattus norvegicus with 6 samples.

Results

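The cord at day 3 after crush was compared with the cord at day 1, cell class by cell class, in the 2 libraries that cover these days. All deposited cells of both entered, 7360 at day 1 and 9263 at day 3, which together are 16623 of the 30699 cells of the series. Both groups were SD animals of 6-8 weeks, labelled as rat, whose spinal cord was crushed at the 10th thoracic level and left otherwise untreated. They differ in the day of collection. Each library holds a 5-mm segment around the lesion, digested with collagenase and trypsin, passed through 40-µm mesh and treated with erythrocyte lysate. The labels give 5 animals per condition, and the cells carry no animal of origin, so each day is 1 library and no test between days is possible. Every interval below is a 95% interval for counting error alone and leaves out the spread between animals.

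In the first days after a spinal cord lesion, blood neutrophils and monocytes enter the tissue while resident microglia react beside them. Both kinds of phagocyte clear dead cells and myelin, which brings lipid into their lysosomes. Endothelial cells rebuild damaged vessels and their barrier, and ependymal cells, oligodendrocyte precursors and fibroblasts can divide and take part in the scar.

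The values are unique molecular identifier (UMI) counts, so each is a captured RNA molecule. The day 1 library holds 50635770 UMIs with a median of 5339.5 per cell, and the day 3 library 72515788 with a median of 6648. Median mitochondrial shares were 2.28% and 2.64%. The tables were labelled rat, but 7659 of the 28615 shared gene names have forms used for mouse (Gm, Rik or ENSMUSG), and 60.3% of names were found in the rat gene table. The libraries share 91 cell barcodes. Xist stood at 700 counts per 1000000 UMIs (CPM) at day 1 and 769 at day 3, and UMIs of 4 Y-linked genes numbered 0 and 2. RNA of phagocyte and neutrophil markers in other classes differed between the days, and free RNA, doublets and engulfed material cannot be told apart as its source. In the 5 classes other than phagocytes and neutrophils, 6 neutrophil markers summed to 268 to 440 CPM at day 1 and 19.2 to 74.0 at day 3. Over the same 5 classes, 8 phagocyte markers summed to 401 to 426 CPM at day 1 and 901 to 1297 at day 3.

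Cells were gated on UMIs of 1 or 2 marker genes, which are therefore no findings. Phagocytes were gated on Tyrobp and C1qa, endothelial cells on Cldn5 and Flt1, fibroblasts on Col1a1 and neutrophils on S100a8, and the other markers of each were present in its class. The 8 phagocyte markers outside the gate summed to 15914 CPM in phagocytes at day 1 and 36820 at day 3. The endothelial markers summed to 10088 and 6948 CPM in endothelial cells, the fibroblast markers to 8696 and 10315 CPM in fibroblasts, and the neutrophil markers to 93757 and 70447 CPM in neutrophils. Cells gated on Foxj1, the master regulator of motile cilia, carried ependymal markers at 2030.3 and 3383 CPM and astrocyte markers outside the gate at 2217 and 1851 CPM. Cells gated on Gfap and Aqp4 carried astrocyte markers at 1685 and 1879.8 CPM and ependymal markers at 904 and 1199 CPM. Among their astrocyte markers, Aldoc stood at 572 and 535 CPM and Sox9 at 497 and 423 CPM, while Slc1a2, the main astrocyte glutamate transporter, was the lowest at 12.02 and 46.2 CPM. Both classes carried markers of both cell types, so they are named by their gate. Cells gated on Pdgfra carried precursor markers of the oligodendrocyte lineage at 2426 and 5132 CPM, but at day 1 also fibroblast markers at 1689 CPM, against 423 at day 3, and they too are named by their gate.

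Phagocytes were the largest class on both days and took a larger share at day 3. They made up 58.0% of cells at day 1 (56.8 to 59.1, 4266 cells) and 71.7% at day 3 (70.7 to 72.6, 6639 cells). Neutrophils, the granulocytes that enter a wound first, made up 4.99% (4.50 to 5.51, 367 cells) and 1.68% (1.43 to 1.97, 156 cells), 2.96-fold lower at day 3, and their median depth differed too, at 5123 and 1774 UMIs. Gfap/Aqp4-gated cells had the lowest ratio of the 7 classes, with 6.67% (6.11 to 7.27, 491 cells) and 1.05% (0.850 to 1.28, 97 cells). The gate gene Gfap itself differed between the days in Foxj1-gated cells, at 2498 and 479 CPM. Of 724 and 170 cells past the Gfap and Aqp4 limit, before other gates were applied, 106 and 66 lay under 2 times that limit. Whether cells fell below this gate at day 3 was not tested. Endothelial cells stood at 15.6% (1150 cells) and 14.2% (1320 cells). Pdgfra-gated cells stood at 0.856% (63 cells) and 0.788% (73 cells), and the interval of their ratio, 0.648 to 1.31, spans 1, with the ratio at 1.29 when gate limits were at 2 times. Foxj1-gated cells stood at 2.91% (214 cells) and 1.87% (173 cells), and fibroblasts at 1.70% (125 cells) and 1.22% (113 cells). For these last 2 classes the direction turned when every cell was thinned to 1000 UMIs before gating, with day 3 over day 1 at 1.27 and 1.15. Cells past more than 1 gate were 2.38% and 2.55%, and cells past none were 6.92% and 4.92%. A share of a library is not a number of cells in the cord, since digestion and the mesh bear on which cells are captured and the shares sum to the whole.

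**Figure D1:**
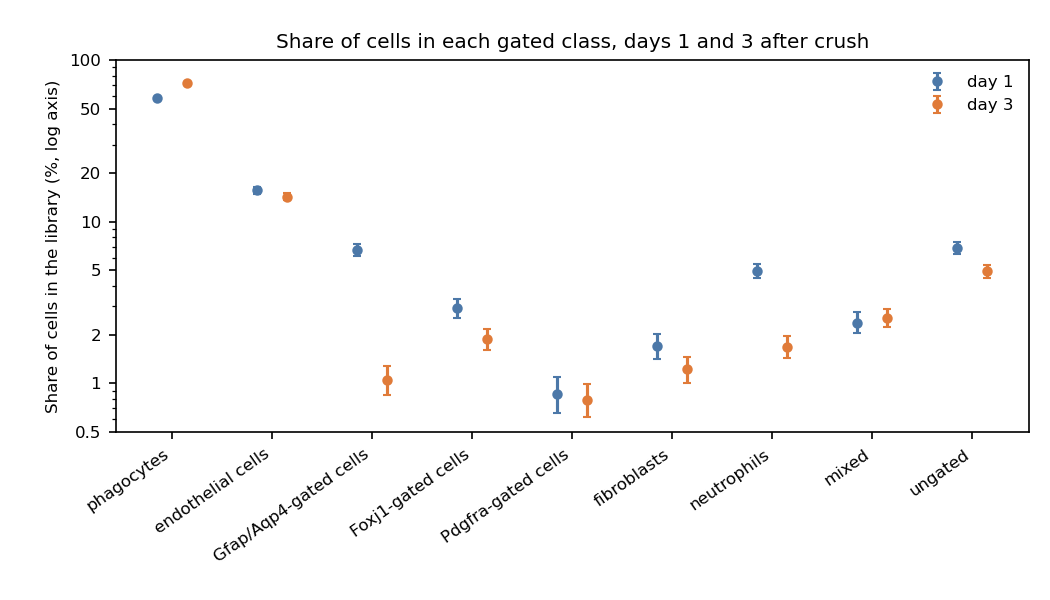
Share of each library's cells in the 7 gated classes, in cells past more than 1 gate (mixed) and in cells past none (ungated), in percent on a log axis. Each point is 1 library and each bar an exact 95% interval for counting error. Phagocytes lie higher at day 3, and Gfap/Aqp4-gated cells and neutrophils lie lower.

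Phagocytes at day 3 held more RNA of lipid-handling, lysosomal and mitotic genes, and less of chemokine, monocyte and interferon genes, than at day 1. Below, "higher" and "lower" in a count mean at least 2-fold apart between the days, and a gene was tested where it had at least 50 UMIs over both. In phagocytes 848 of 11931 genes tested (7.11%) were higher and 1288 (10.8%) lower, with a median log2 ratio of -0.19. The balance of that split depends on the scaling. With TMM factors, which centre on the bulk of genes and add 0.23 to every log2 ratio here, the counts were 1198 higher and 838 lower.

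Gpnmb, a transmembrane glycoprotein abundant in lipid-laden macrophages, stood at 40.0 and 1615 CPM at day 1 and day 3, 40.4-fold higher (38.2 to 42.8). Apoe, the apolipoprotein that carries cholesterol out of phagocytes, stood at 1460.5 and 23669 CPM, 16.2-fold higher (16.1 to 16.4). Apoc1, another apolipoprotein, stood at 4.16 and 124 CPM, 29.8-fold higher (25.02 to 35.8). Both lipid carriers were thus more than 10-fold apart. The fatty acid binding proteins Fabp5 (447 and 3387 CPM) and Fabp4 (6.66 and 113 CPM) were 7.58-fold higher and 17.0-fold higher. Of the genes for lipid uptake and export, 8 of 20 measured were higher and 2 lower, with a median log2 ratio of 0.84. The scavenger receptor Msr1 was on the lower side, at 584 and 131 CPM. Of the genes of disease-associated and lipid-laden phagocytes, 7 of 19 measured were higher and 1 lower, with a median log2 ratio of 0.57. Trem2, a lipid-sensing receptor, stood at 458 and 1460.2 CPM, 3.19-fold higher, while Lpl, which hydrolyses triglycerides, went the other way at 509 and 111 CPM, 4.59-fold lower. Spp1, which encodes osteopontin, was abundant on both days at 16562 and 25611 CPM.

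Lysosomal genes lay on the same side. Of these, 15 of 25 measured were higher and 0 lower, with a median log2 ratio of 1.07, beside -0.19 for all genes. Ctsd, a lysosomal protease, stood at 3204 and 14563 CPM, 4.54-fold higher. Hexa, a subunit of the enzyme that degrades gangliosides, stood at 238 and 1043 CPM, 4.38-fold higher. Lipa, which frees cholesterol from its esters, was 3.48-fold higher, and Psap, the precursor of the saposins, 3.25-fold higher. The proteases Ctsz (1776 and 1995 CPM) and Ctsl (2282 and 1971 CPM) were the members nearest to a ratio of 1.

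The genes of homeostatic microglia split. Of these, 7 of 20 measured were higher and 1 lower, with a median log2 ratio of 0.65. P2ry12, a purine receptor of surveying microglia, stood at 41.5 and 276 CPM, 6.64-fold higher (6.27 to 7.04). With every cell thinned to 1000 UMIs, 3.07% of phagocytes held a P2ry12 UMI at day 1 and 21.1% at day 3, against 0.0870% and 0.985% of endothelial cells, which should lack it. Unthinned, the phagocyte shares were 19.2% and 49.6%, at median depths of 5355 and 7427 UMIs, with 4458 and 4189.5 in endothelial cells. Siglech, a lectin of microglia, was 3.75-fold higher, and the receptor Gpr34 3.17-fold higher. In contrast, the fractalkine receptor Cx3cr1 stood at 384 and 376 CPM and Csf1r, the receptor for the growth factor CSF1, at 516 and 545 CPM. Further leading genes were the growth factor Igf1 (3.99 and 87.4 CPM, 21.9-fold higher), Ms4a7 (24.9 and 262 CPM), the protease inhibitor Serpinb6a (11.8 and 90.8 CPM) and the lysozyme gene Lyz2 (3113 and 16491 CPM, 5.30-fold higher).

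On the lower side, 7 of the 10 leading genes were chemokines. Leading genes are those farthest apart by log2 of CPM plus 10, and with 100 added in its place 10 of the 20 in phagocytes stayed among the leading. Cxcl3, which attracts neutrophils, stood at 688 and 8.00 CPM, 86.04-fold lower (78.4 to 94.6). Ccl17, a ligand of the chemokine receptor CCR4 of T cells, stood at 107 and 0.608 CPM, 176-fold lower (126 to 254). Ccl12, which attracts monocytes, stood at 2887 and 166 CPM, 17.4-fold lower (17.0 to 17.8). A Ccl12 UMI was held by 40.2% of thinned phagocytes at day 1 and 10.5% at day 3, and by 7.91% and 1.14% of thinned endothelial cells; unthinned, the phagocyte shares were 62.6% and 34.1%. Ccl24 (208 and 8.31 CPM) was 25.03-fold lower, Ccl6 (4642 and 674 CPM) 6.89-fold lower, Ccl9 (2136 and 378 CPM) 5.65-fold lower and Ccl5 (155 and 26.5 CPM) 5.88-fold lower. Of the chemokine list, 0 of 19 measured were higher and 12 lower, with a median log2 ratio of -1.38, with Cxcl16 (116 and 176 CPM) and Pf4 (822 and 760.2 CPM) between. The other leading genes were Ltb4r1, the leukotriene B4 receptor (79.5 and 9.01 CPM), the proteoglycan Sdc4 (349 and 66.2 CPM) and the transcription factor Cebpb (2538 and 538 CPM, 4.72-fold lower).

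Other inflammatory lists were lower as well. Of blood monocyte genes, 0 of 15 measured were higher and 13 lower, with a median log2 ratio of -1.48. Vcan, a proteoglycan of classical monocytes, stood at 55.6 and 4.95 CPM, 11.2-fold lower, and Ccr2, the receptor that guides monocytes out of the marrow, at 152 and 35.8 CPM, 4.24-fold lower. Of interferon response genes, 0 of 20 measured were higher and 15 lower, with a median log2 ratio of -1.30, with the antiviral gene Rsad2 at 44.3 and 5.82 CPM and Isg15 at 165 and 38.0 CPM. Of pro-inflammatory cytokines and enzymes, 0 of 16 measured were higher and 7 lower, with a median log2 ratio of -0.91. Il6 stood at 25.04 and 1.86 CPM, 13.5-fold lower, whereas Il1b stood at 481 and 319.8 CPM and Tnf at 270.5 and 158 CPM. Of genes for alternative activation and repair, 3 of 16 measured were higher and 11 lower, with a median log2 ratio of -1.28. Arg1, which consumes arginine, stood at 2339 and 954 CPM, 2.45-fold lower, and Il1rn, which blocks the interleukin 1 receptor, at 211 and 49.4 CPM. Folr2, a folate receptor of tissue macrophages, was higher, at 10.4 and 49.5 CPM. Counts for glycolysis and hypoxia were 0 higher and 8 lower of 22 (median log2 ratio -0.78), for cholesterol synthesis 0 higher and 8 lower of 16 (median log2 ratio -1.06), for heat shock and ER stress 0 higher and 3 lower of 16 (median log2 ratio -0.73) and for complement 0 higher and 3 lower of 13 (median log2 ratio -0.51). MHC class II genes gave 0 higher and 0 lower of 7 (median log2 ratio -0.54), with Cd74 at 1684 and 956 CPM. The nuclear genes of oxidative phosphorylation gave 0 higher and 1 lower of 20 (median log2 ratio -0.12).

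**Figure D2:**
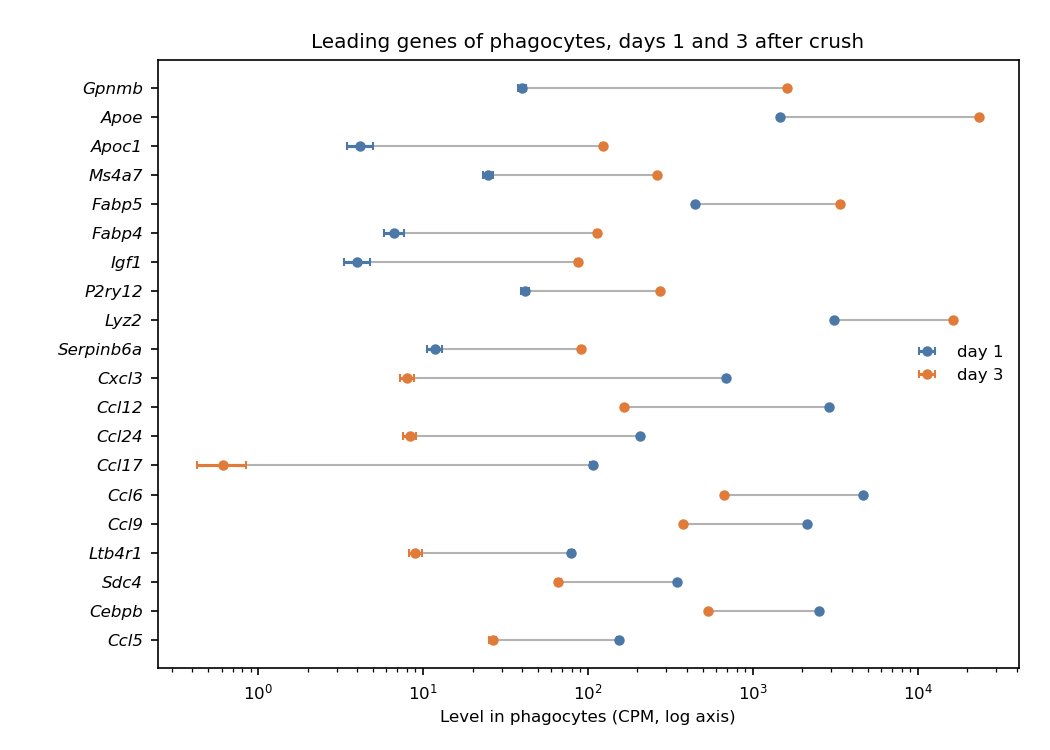
CPM of the 20 leading genes in phagocytes at day 1 and day 3, on a log axis, with 10 higher and 10 lower at day 3. Each point is the sum over all phagocytes of 1 library and bars are exact 95% intervals for counting error. Apoe spans 1460.5 and 23669 CPM and Cxcl3 688 and 8.00 CPM.

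Phagocytes here can be microglia or macrophages from blood, and C1qa, a complement gene high in microglia and in mature macrophages, spans a wide range among them. Cells with at least 10 C1qa UMIs per 10000 made up 46.0% of phagocytes at day 1 (1962 cells) and 67.6% at day 3 (4489 cells). This limit was chosen after the values were seen, it cuts a range and not a cell type, and 200 and 687 cells lay between 5 and 15 per 10000. Phagocytes with 0 C1qa UMIs were 35.3% and 11.96%.

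Among C1qa-high cells 1047 of 11340 genes tested were higher and 1470 lower, with a median log2 ratio of -0.21. Among C1qa-low cells 687 of 9900 genes tested were higher and 851 lower, with a median log2 ratio of -0.10. Several of the differences were present on both sides of that limit. Apoe was 23.4-fold higher among C1qa-high and 10.8-fold higher among C1qa-low cells, and Gpnmb stood at 6.31 and 1129 CPM and at 96.7 and 2854 CPM. Lysosomal genes gave 13 higher and 0 lower of 25 (median log2 ratio 1.11) among C1qa-high and 17 higher and 0 lower of 25 (median log2 ratio 1.26) among C1qa-low cells. Interferon genes gave 0 higher and 11 lower of 20 (median log2 ratio -1.09) and 0 higher and 17 lower of 20 (median log2 ratio -1.55), and chemokines 0 higher and 9 lower of 19 (median log2 ratio -0.99) and 2 higher and 10 lower of 19 (median log2 ratio -1.62). Other results differed in size or direction between the sides. Monocyte genes gave 3 higher and 4 lower of 15 (median log2 ratio -0.06) among C1qa-high and 0 higher and 13 lower of 15 (median log2 ratio -1.60) among C1qa-low cells. Arg1 stood at 432 and 749 CPM among C1qa-high cells, 1.73-fold higher, and at 5554 and 1475 CPM among C1qa-low cells, 3.76-fold lower. Il1b followed the same split, at 196 and 339 CPM among C1qa-high and 962 and 270.5 CPM among C1qa-low cells. P2ry12 was 6.28-fold higher among C1qa-high cells (59.97 and 377 CPM) and 1.75-fold higher among C1qa-low cells (10.4 and 18.2 CPM). The difference between the sides was not tested.

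Genes of the G2 and M phases, which run cell division, were higher at day 3 in 6 of the 7 classes and lower in neutrophils. In phagocytes, 18 of 18 measured were higher and 0 lower, with a median log2 ratio of 2.36. The share of phagocytes with at least 2 UMIs of this list was 9.28% at day 1 and 22.9% at day 3, and with cells thinned to 1000 UMIs the share with at least 1 was 6.40% and 15.4%. In the same cells the S phase list, which copies DNA, gave 2 higher and 8 lower of 16 (median log2 ratio -0.76). Its higher members were Pclaf (24.6 and 73.7 CPM) and Rrm2 (11.98 and 25.8 CPM), while the helicase subunit Mcm2 stood at 36.0 and 11.6 CPM. G2 and M phase genes gave 18 higher and 0 lower of 18 (median log2 ratio 2.95) among C1qa-high and 8 higher and 0 lower of 18 (median log2 ratio 0.94) among C1qa-low phagocytes. Among endothelial cells the share with at least 2 UMIs was 0.609% and 8.18%, and all 18 measured genes were higher, with a median log2 ratio of 4.19. After thinning, the endothelial shares with at least 1 UMI were 2.09% and 7.80%. Pdgfra-gated cells stood at 4.76% and 45.2%, and their list gave 17 higher and 0 lower of 17 (median log2 ratio 5.15). After thinning, 0 of 63 Pdgfra-gated cells held such a UMI at day 1, with an upper bound of 5.69%, and 38.4% at day 3. Fibroblasts stood at 13.6% and 44.2%, or 8.80% and 32.7% after thinning, and their list gave 18 higher and 0 lower of 18 (median log2 ratio 3.48). For Foxj1-gated cells the shares were 5.14% and 13.9% (4.21% and 9.83% thinned), and for Gfap/Aqp4-gated cells 6.92% and 9.28% (4.68% and 12.4% thinned), with intervals that overlap between the days except for the Foxj1-gated cells at full depth. The list median in Gfap/Aqp4-gated cells was 3.21, and 0.56 without cells over 3 times the median UMIs of their class. For neutrophils the shares were 26.4% and 7.69%, or 25.3% and 9.62% after thinning, with 0 higher and 16 lower of 18 (median log2 ratio -1.84). These counts describe RNA, and no cycling is read from them alone.

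**Figure D3:**
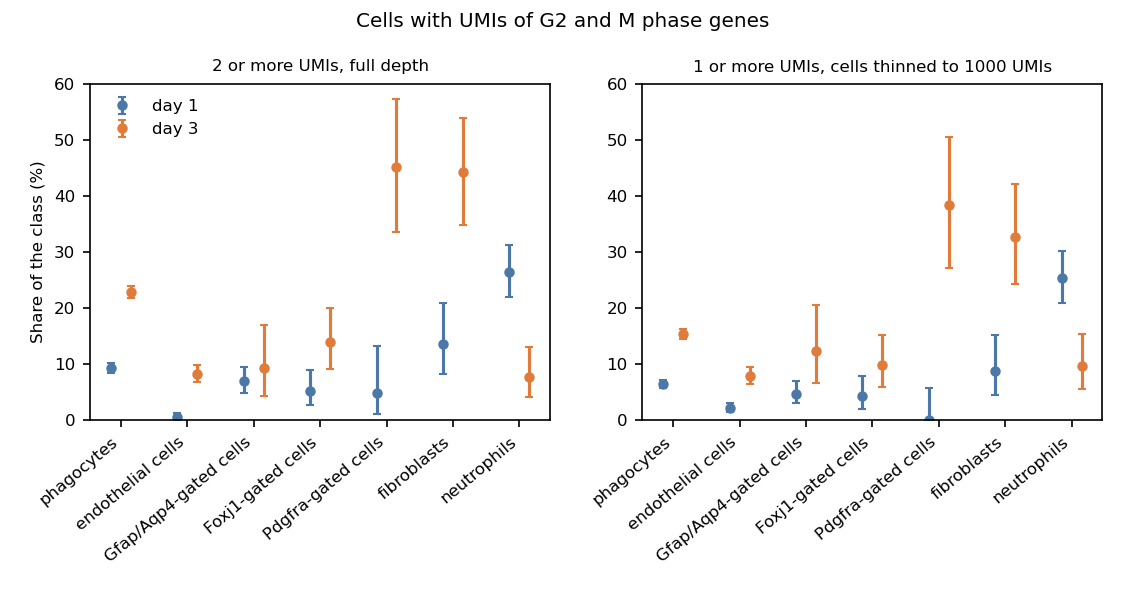
Percent of cells in each class at day 1 and day 3 with at least 2 UMIs of G2 and M phase genes at full depth (left) and with at least 1 after thinning to 1000 UMIs (right). Each point is 1 library and bars are exact 95% intervals for counting error. Neutrophils lie lower at day 3, at 7.69% against 26.4%, and the Pdgfra-gated cells reach 45.2%.

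Endothelial cells at day 3 held more RNA of barrier and transporter genes and less of tip cell genes, which lead sprouting vessels, than at day 1. Of their genes, 575 of 10094 genes tested (5.7%) were higher and 894 (8.86%) lower, with a median log2 ratio of -0.14, and with TMM 721 higher and 694 lower (shift 0.12). Of the barrier junctions and transporters, 10 of 16 measured were higher and 0 lower, with a median log2 ratio of 1.25. Slc22a8, an organic anion transporter of brain vessels, stood at 35.3 and 285 CPM, 8.07-fold higher. Mfsd2a, which carries lipid across the barrier and limits transcytosis, stood at 70.3 and 180.2 CPM, 2.56-fold higher, and the drug exporter Abcb1a at 299.6 and 721 CPM, 2.40-fold higher. The glucose transporter Slc2a1 (2155 and 2188 CPM), the tight junction gene Ocln (143 and 178 CPM) and the cadherin Cdh5 (584 and 374 CPM) lay between. Of the Wnt response genes, a pathway that maintains this barrier, 3 of 11 measured were higher and 1 lower, with a median log2 ratio of 0.66, with Axin2 at 14.4 and 44.2 CPM and Foxq1 at 144 and 413 CPM.

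Among tip cell and angiogenesis genes, 2 of 19 measured were higher and 8 lower, with a median log2 ratio of -0.72. Apln, a peptide of tip cells, stood at 551 and 61.6 CPM, 8.95-fold lower (8.14 to 9.85), while its receptor Aplnr stood at 3.09 and 23.7 CPM, 7.69-fold higher. Angpt2, which destabilises vessels, stood at 229 and 24.5 CPM, 9.33-fold lower, and the growth factor Pgf at 231 and 46.5 CPM, 4.97-fold lower. Kdr, the main VEGF receptor (216 and 267 CPM), and the Notch ligand Dll4 (72.1 and 43.7 CPM) lay between. Genes for adhesion to leukocytes gave 0 higher and 3 lower of 9 (median log2 ratio -0.45). Lrg1, a secreted glycoprotein, was among the lower, at 1291 and 215 CPM, whereas the adhesion receptors Icam1 (148 and 166 CPM) and Vcam1 (131 and 140.2 CPM) lay near a ratio of 1. Cholesterol synthesis gave 0 higher and 11 lower of 16 (median log2 ratio -1.32), glycolysis and hypoxia 1 higher and 10 lower of 22 (median log2 ratio -0.87) and immediate early genes 6 higher and 1 lower of 18 (median log2 ratio 0.63).

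The leading endothelial genes were drawn from several functions. Higher were the matrix proteins Sparcl1 (111 and 989.9 CPM, 8.95-fold higher) and Spock2 (168 and 1452 CPM), the circadian factor Dbp (11.0 and 156 CPM), the amino acid transporter Slc7a5 (99.0 and 766 CPM, 7.74-fold higher), the sulfotransferase Sult1a1 (8.24 and 111 CPM) and the growth factor Ptn (153 and 1067 CPM). Lower beside Apln were the protease Adamts9 (392 and 26.5 CPM, 14.8-fold lower), Igfbp4 (670.0 and 73.9 CPM), the urokinase receptor Plaur (623 and 71.1 CPM), Emp1 (659 and 78.3 CPM) and the lipid phosphatase Plpp3 (212 and 19.9 CPM). Dbp follows the hour of the day, and the hour of collection is not given in the sources used here.

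**Figure D4:**
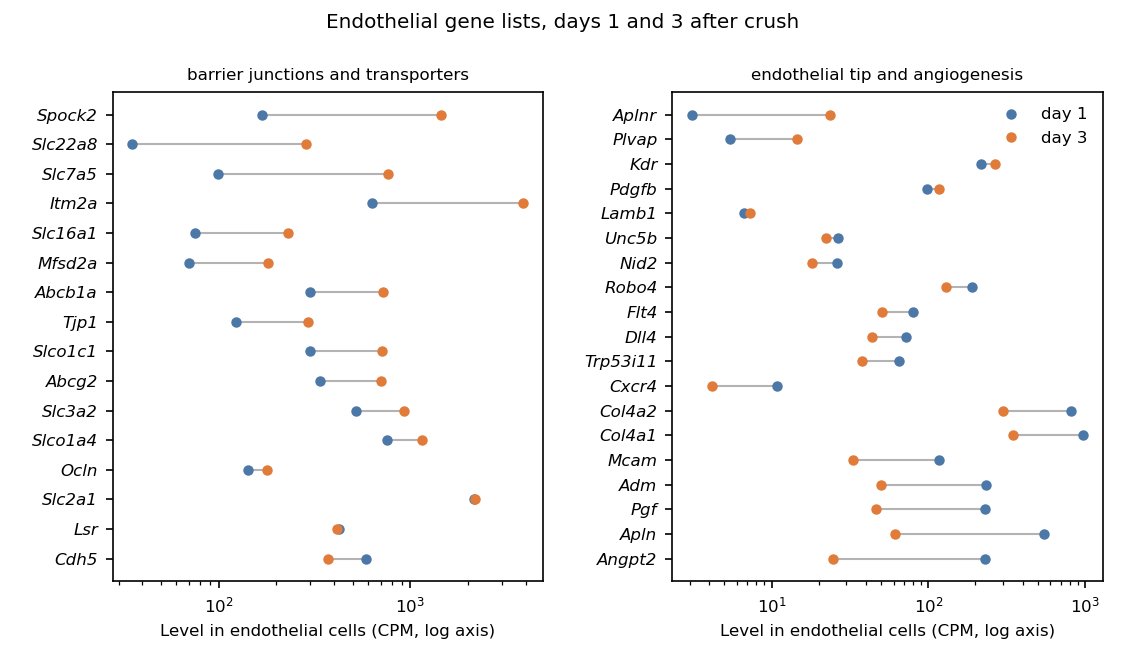
CPM in endothelial cells at day 1 and day 3 on a log axis, for the measured genes of the barrier list (left) and the tip cell and angiogenesis list (right). Each point is the sum over all endothelial cells of 1 library. Slc22a8 lies at 35.3 and 285 CPM and Angpt2 at 229 and 24.5 CPM.

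The Gfap/Aqp4-gated and Foxj1-gated cells, 2 classes that carry both ependymal and astrocyte markers, both held less RNA of reactive astroglia genes at day 3. In Gfap/Aqp4-gated cells 509 of 6818 genes tested (7.47%) were higher and 620 (9.09%) lower, with a median log2 ratio of -0.03, and with TMM 364 higher and 832 lower (shift -0.15). In Foxj1-gated cells 328 of 5791 genes tested (5.66%) were higher and 309 (5.34%) lower, with a median log2 ratio of 0.02, and with TMM 256 higher and 379 lower (shift -0.10). Of reactive astroglia genes, 1 of 20 measured were higher and 11 lower, with a median log2 ratio of -1.37 in Gfap/Aqp4-gated cells, and 1 of 20 measured were higher and 11 lower, with a median log2 ratio of -1.11 in Foxj1-gated cells. Serpina3n, a secreted protease inhibitor, stood at 526 and 140.5 CPM, 3.74-fold lower, in the former and at 917 and 46.9 CPM, 19.5-fold lower (14.5 to 27.0), in the latter. Vim, an intermediate filament gene, stood at 5735 and 7985 CPM in Gfap/Aqp4-gated cells. Hspb1, a small heat shock protein, stood at 9481 and 1701 CPM (5.57-fold lower) and at 9738 and 935 CPM (10.4-fold lower).

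Some leading genes were shared between these 2 classes. The fatty acid binding protein Fabp7 of radial glia stood at 32.7 and 891 CPM in Gfap/Aqp4-gated cells, 27.3-fold higher, with 28.1% of its day 3 UMIs in 1 cell, and at 34.99 and 532 CPM in Foxj1-gated cells, 15.2-fold higher. Sparcl1 was 11.1-fold higher and 8.92-fold higher. Lower in both were the 14-3-3 protein Sfn (58.9 and 0 CPM, at least 10.2-fold lower, and 103 and 4.27 CPM, 24.2-fold lower), the transglutaminase Tgm1 (137 and 13.5 CPM and 81.4 and 0 CPM) and the annexin Anxa8 (64.1 and 3.85 CPM and 116 and 7.47 CPM). A fold given as "at least" is set against 3 UMIs over the class, since none was counted on 1 day.

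In Gfap/Aqp4-gated cells the other leading genes were the potassium channel Kcnj10 (14.2 and 169 CPM, 11.9-fold higher), Tmem255a (3.70 and 96.2 CPM), Gpx3 (18.2 and 204 CPM) and the actin-severing Gsn (11.4 and 202 CPM), of which 1 cell held 85.7% of the day 3 UMIs. Lower were Hmga1 (138 and 13.5 CPM) and Arhgdig (140.0 and 19.2 CPM). Homeostatic astroglia genes gave 6 higher and 2 lower of 14 (median log2 ratio 0.71) in Gfap/Aqp4-gated and 5 higher and 2 lower of 14 (median log2 ratio 0.08) in Foxj1-gated cells. Olig1, a marker of the oligodendrocyte lineage, stood at 29.6 and 165 CPM in Gfap/Aqp4-gated cells, and its part in these results was not tested. In Foxj1-gated cells, a list of cilia and other ependymal genes gave 5 higher and 0 lower of 16 (median log2 ratio 0.59). Of its members, Ccdc153 stood at 289.5 and 691 CPM in these cells and Mia, which is not a cilia gene, at 549.7 and 1274 CPM. The other leading genes of Foxj1-gated cells were Pcp4 (18.5 and 199 CPM), the calcium-binding Calb1 (4.45 and 76.8 CPM), Clec3b (9.54 and 103 CPM) and the ephrin Efnb3 (3.82 and 67.2 CPM, with 39.7% of day 3 UMIs in 1 cell), and, lower, S100a4 (201 and 24.5 CPM). Cholesterol synthesis genes gave 1 higher and 8 lower of 16 (median log2 ratio -1.12).

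Pdgfra-gated cells held more RNA of cell division and precursor genes at day 3, from 63 cells at day 1 and 73 at day 3. An Olig1 UMI was held by 48 of these cells at day 1 and 68 at day 3. The part of this difference in the precursor result was not tested. Here 315 of 3276 genes tested (9.62%) were higher and 237 (7.23%) lower, with a median log2 ratio of 0.08, and with TMM 250 higher and 302 lower (shift -0.12). The mitotic genes Ccnb1, a cyclin (0 and 301 CPM, at least 58.2-fold higher), Ube2c (5.18 and 419 CPM, 80.8-fold higher, 27.2 to 395) and Birc5 (5.18 and 369.9 CPM, 71.4-fold higher) led. Cenpa, the centromeric histone, rested on 1 and 200 UMIs, a ratio of 257 with an interval of 45.5 to 10184, and Cdca3 (1.73 and 297 CPM) and Lockd (1.73 and 308 CPM) also had 1 UMI at day 1. S phase genes gave 9 higher and 0 lower of 15 (median log2 ratio 1.36). Precursor genes of the oligodendrocyte lineage gave 6 higher and 0 lower of 12 (median log2 ratio 0.99), with Gpr17, a receptor of committed precursors, at 20.7 and 295 CPM, 14.2-fold higher. Genes of maturation gave 4 higher and 0 lower of 6 (median log2 ratio 1.31), with Bcas1 at 63.9 and 321 CPM.

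On the lower side, the neuropeptide precursor Vgf stood at 3165 and 37.7 CPM, 84.1-fold lower (52.4 to 145), and the alarmin Il33 at 1359 and 77.5 CPM, 17.5-fold lower. Rasl11a stood at 364 and 13.3 CPM. Bmp2, a growth factor (259 and 0 CPM), Klk9 (216 and 0 CPM) and the chemokine Cxcl5 (173 and 0 CPM, with 66.0% of day 1 UMIs in 1 cell) had no UMI at day 3. Interferon genes gave 2 higher and 11 lower of 13 (median log2 ratio -2.45), chemokines 0 higher and 10 lower of 14 (median log2 ratio -2.38) and fibrillar collagen and matrix 0 higher and 14 lower of 18 (median log2 ratio -1.83). With gate limits divided by 2, the collagen median was -0.54. Fibroblast markers in this class summed to 1689 CPM at day 1 and 423 at day 3. Among the cells that also held an Olig1 UMI, a group chosen after the values were seen, G2 and M phase genes gave 17 higher and 0 lower of 17 (median log2 ratio 4.80), interferon genes 2 higher and 11 lower of 13 (median log2 ratio -2.63) and collagen genes 1 higher and 2 lower of 6 (median log2 ratio -0.42). In that group 264 of 2942 genes tested were higher and 198 lower, with a median log2 ratio of 0.07.

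Fibroblasts at day 3 held more RNA of collagen and cholesterol synthesis genes, and of contraction genes where cells with Acta2 or Rgs5 UMIs were included. Leaving those cells out kept 122 of 125 cells at day 1 and 75 of 113 at day 3. Of their genes, 328 of 5492 genes tested (5.97%) were higher and 197 (3.59%) lower, with a median log2 ratio of 0.04. Collagen and matrix genes gave 6 higher and 2 lower of 20 (median log2 ratio 0.81), with Col5a1 at 53.7 and 255 CPM (4.74-fold higher), Col1a2 at 1564 and 3850.2 CPM and fibronectin, Fn1, at 273 and 846 CPM, while decorin, Dcn, stood at 4067 and 1828 CPM. Genes of activation and contraction gave 8 higher and 3 lower of 16 (median log2 ratio 1.01), with Cthrc1, a secreted protein of matrix-forming fibroblasts, at 251 and 1250.0 CPM and Acta2, smooth muscle actin, at 0.826 and 409.5 CPM (1 and 592 UMIs). Markers of pericytes and smooth muscle summed to 44.6 and 824 CPM in this class. Without cells holding Acta2 or Rgs5 UMIs, contraction genes gave 3 higher and 3 lower of 14 (median log2 ratio 0.16), collagen genes 5 higher and 2 lower of 20 (median log2 ratio 0.48) and cholesterol synthesis 10 higher and 0 lower of 16 (median log2 ratio 1.40), beside 8 higher and 0 lower of 16 (median log2 ratio 1.13) for all fibroblasts. With those cells left out, 275 of 4562 genes tested were higher and 205 lower, with a median log2 ratio of 0.03.

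The leading higher genes of fibroblasts were the imprinted RNA H19 (131 and 1649 CPM, 12.6-fold higher), the muscle genes Tpm2 (25.6 and 282 CPM) and Actg2 (0 and 96.2 CPM, 63.3% of day 3 UMIs in 1 cell), the mitotic genes Ube2c (6.61 and 146 CPM) and Birc5 (11.6 and 159.8 CPM) and the claudin Cldn11 (70.2 and 549.9 CPM). Lower were the collagenase Mmp13 (636 and 8.30 CPM, 76.7-fold lower), Serpina3n (512 and 6.23 CPM, 82.2-fold lower), the lubricin gene Prg4 (2448 and 176 CPM) and Myoc (272 and 0 CPM). For Ibsp (1292 and 0 CPM) and the acute phase gene Saa1 (688 and 0 CPM), the highest cell of each gene held 48.6% and 50.5% of its day 1 UMIs. Metalloproteinases and their inhibitors gave 0 higher and 4 lower of 12 (median log2 ratio -0.59) and chemokines 1 higher and 9 lower of 17 (median log2 ratio -1.12), with Cxcl1 at 1288 and 366 CPM.

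Neutrophils at day 3 held more RNA of 7 of 16 listed mature neutrophil genes and less of division genes. They also held more of lysosomal genes, with a smaller difference when the largest cells were left out. Of their genes, 204 of 4412 genes tested (4.62%) were higher and 286 (6.48%) lower, with a median log2 ratio of 0.02, and with TMM 153 higher and 362 lower (shift -0.12). The mature neutrophil list gave 7 higher and 1 lower of 16 (median log2 ratio 0.60). It shares S100a9, Csf3r, Retnlg, Mmp9 and Cxcr2 with the neutrophil markers outside the gate. The sum of those markers was lower at day 3, as given above. Siglecf, a lectin of eosinophils and of some tissue neutrophils, stood at 2.95 and 102 CPM, 34.5-fold higher (15.6 to 90.2). Thinned to 1000 UMIs, 0.272% and 17.9% of neutrophils held a Siglecf UMI, against 0.117% and 0.889% of phagocytes. Unthinned, the neutrophil shares were 1.91% and 25.6%, at median depths of 5123 and 1774 UMIs. Il1b stood at 829 and 1964 CPM, 2.37-fold higher, the growth factor Csf1 at 43.0 and 204 CPM and the marrow-retention receptor Cxcr4 at 177 and 394 CPM. Early granule genes gave 0 higher and 3 lower of 14 (median log2 ratio -0.58) and lysosomal genes 17 higher and 0 lower of 24 (median log2 ratio 1.22). Without cells over 3 times the median UMIs of their class, the lysosomal median was 0.43.

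Among the other leading neutrophil genes, Gngt2 (129.6 and 724 CPM) and Syngr1 (49.8 and 253 CPM) were higher, and Cxcl3 (790.0 and 36.7 CPM, 21.5-fold lower), Ccl6 (3570.0 and 675 CPM), Ccl9 (1134 and 247 CPM), Ccl24 (77.2 and 0 CPM), Cstdc4 (392 and 73.4 CPM) and Uck2 (54.0 and 6.12 CPM) lower. Apoe (557 and 8798 CPM), Ms4a7 (2.95 and 114 CPM) and Gpnmb (4.64 and 657 CPM) were also higher, and these 3 led in phagocytes too. Of the day 3 Gpnmb UMIs, 35.1% lay in 1 cell. Phagocyte markers summed to 12171 and 16466 CPM in neutrophils. With neutrophils of fewer than 2 C1qa UMIs only, a limit chosen after the values were seen, Gpnmb stood at 4.44 and 535 CPM, Apoe at 552 and 5036 CPM and Siglecf at 2.78 and 109.8 CPM, and mature neutrophil genes gave 7 higher and 2 lower of 16 (median log2 ratio 0.64). In these cells 177 of 3568 genes tested were higher and 213 lower, with a median log2 ratio of 0.03.

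Across the classes, 2396 genes were tested in all 7, and 1699 of them were less than 2-fold apart in each. Apoe, the cathepsin Ctss and the mitochondrial mt-Nd3 were higher in every class, and Ccl6, Sdc4, Cebpb and Scand1 were lower in every class. In endothelial cells, Apoe stood at 233 and 1773 CPM. Phagocyte markers in classes other than phagocytes and neutrophils were higher at day 3, as given above, and Ctss is 1 of those markers. Neutrophil markers in the same classes were lower at day 3. Over these classes Ccl6 stood at 105 to 140 CPM at day 1 and 11.1 to 22.4 at day 3. In phagocytes Ccl6 stood at 4642 and 674 CPM, and in neutrophils at 3570 and 675 CPM. The part of phagocyte and neutrophil RNA in the values of the other classes was not tested. A further 44 genes were higher in at least 1 class and lower in at least 1 other.

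**Figure D5:**
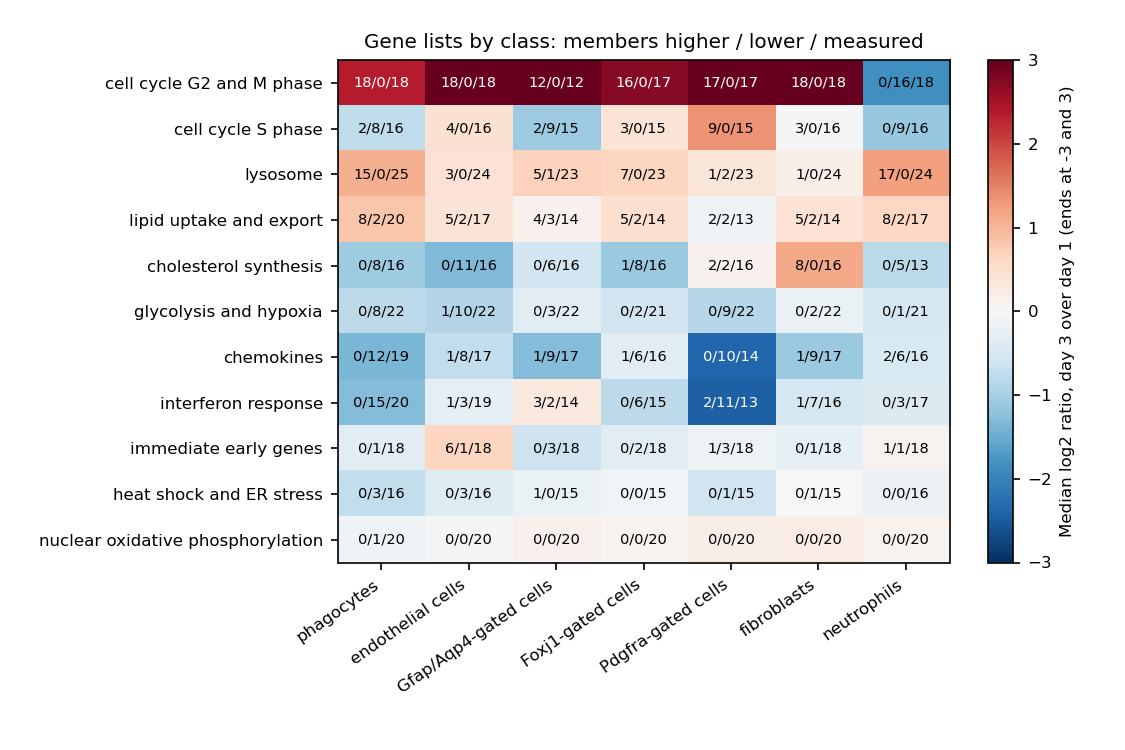
Median log2 ratio of CPM, day 3 over day 1, for each gene list and class, with colour limited to 3 in either direction. The numbers in each field are the genes higher, lower and measured. G2 and M phase genes are higher in 6 classes and lower in neutrophils.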

How the data were processed

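Droplet single-cell RNA sequencing of the day 1 and day 3 libraries was used. The deposited values are raw UMI counts per gene and cell, made by the authors with Cell Ranger 3.0.2 per the submitters' processing notes; how cells were called is not given in the sources used here. The lowest cells held 1235 and 1115 UMIs. Gene names altered in the day 1 table were matched to those of day 3, and 77 names found at day 1 alone were left out (0.0096% of its UMIs).

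Cells were gated by at least 2 marker UMIs and a limit per 10000 UMIs: Tyrobp with C1qa 10, Cldn5 with Flt1 10, Gfap with Aqp4 5, Foxj1 2 UMIs, Pdgfra 2, Col1a1 5 and S100a8 100. S100a8 took precedence over Tyrobp, Foxj1 over Gfap and Col1a1 over Pdgfra, and other cells past 2 gates were set aside as mixed. No doublet caller was run, and cells over 3 times their class median of UMIs were left out as an alternative. UMIs were summed per class and scaled to CPM. Intervals are exact, Poisson for levels and binomial for ratios and shares, at 95%; they cover counting error only. List members needed at least 10 UMIs.

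Named genes, 10 each way in phagocytes and 6 in each other class, were those farthest apart between the days by log2 of CPM with 10 added. Each needed 50 UMIs and 50 CPM on its higher day, and there no less than 0.2 of its level in the class richest in it. Mitochondrial, ribosomal protein and haemoglobin genes, gate genes of the class, markers of other classes and names without a symbol were left out. Markers of the class itself outside its gate stayed in, such as Lyz2 in phagocytes. List members with large ratios, or near 1 where a list split, were added. The gene lists and the comparison itself were chosen with earlier results of these data known. The subsets by C1qa, Olig1 and Acta2 or Rgs5, and the joint Gfap/Aqp4 and Foxj1 gate, were added after the data were seen. Python 3.11.15 with numpy 2.4.6 and scipy 1.17.1 was used, and edgeR 4.0.16 for TMM factors alone. Interval coverage was checked on simulated Poisson counts, and gating on artificial cells that held gate genes of at most 1 class. Neither simulation held free RNA or doublets, so neither tests the effect of these.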

Additional observations from a re-analysis of the deposited data

Results flagged for a closer look

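Some genes were at least 2-fold higher at day 3 in 1 class and at least 2-fold lower in another. The gap is the difference of the log2 ratios of the 2 classes; with 1 library a day, the difference was not tested. Only members of the gene lists and leading genes, past limits on level and interval, were searched for such gaps. Among these, the widest gaps lay between Pdgfra-gated cells, where the division genes were higher, and neutrophils, where they were lower. The gaps were 9.85 for Cdc20, 9.72 for Cdca3, 8.30 for Ube2c, 8.01 for Birc5 and 7.26 for Pclaf. The whole list of G2 and M phase genes had a median log2 ratio of 5.15 in Pdgfra-gated cells and -1.84 in neutrophils.

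Other gaps set fibroblasts against a second class. Gsn had a gap of 7.26 and Gpx3 of 5.84, both higher in Gfap/Aqp4-gated cells and lower in fibroblasts, and 1 Gfap/Aqp4-gated cell held 85.7% of the day 3 Gsn UMIs. Clec3b had a gap of 6.39, higher in Foxj1-gated cells and lower in fibroblasts. Il1rn stood at 3.31 and 81.6 CPM in fibroblasts and 211 and 49.4 CPM in phagocytes at day 1 and day 3, a gap of 6.72. Ccl5 was also higher in fibroblasts and lower in phagocytes, with a gap of 4.28. By summed CPM, Spp1 was higher in neutrophils and lower in fibroblasts (3.12), and Fn1 the reverse (2.96). The share of thinned fibroblasts with an Spp1 UMI went the other way, at 48% at day 1 and 63.7% at day 3. For thinned neutrophils the shares were 56.9% and 80.8%. They were 38.9% and 63.2% for thinned endothelial cells and 36.4% and 64.2% for thinned Foxj1-gated cells. The part of RNA from other cells in these Spp1 values was not tested.

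In endothelial cells the transporter Slc7a5 stood at 99.0 and 766 CPM, and in phagocytes at 53.6 and 12.4 CPM, a gap of 5.06. Pgf stood at 231 and 46.5 CPM in endothelial cells and 37.2 and 133 CPM in fibroblasts, a gap of 4.15. Olfml3 was higher in phagocytes and lower in Pdgfra-gated cells, with a gap of 3.27.

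Cells past no gate, which entered no comparison, held markers of further cell types. B or plasma cell markers summed to 701.9 CPM there at day 1 and 29.2 at day 3, and T or NK cell markers to 253.4 and 99.4. Ependymal markers summed to 255 CPM there at day 1 and 1839 at day 3. Precursor markers of the oligodendrocyte lineage summed to 244 and 1294 CPM, and pericyte or smooth muscle markers to 624 and 2132 CPM. Of the astrocyte markers outside the gate, S100b stood at 65.4 and 587 CPM, Slc1a3 at 20.5 and 104 and Slc1a2 at 9.19 and 31.9. Aldoc stood at 117 and 216 CPM and Sox9 at 185 and 219, while Gja1 was lower at day 3, at 185 and 118. Their part in the lower share of Gfap/Aqp4-gated cells was not tested.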

How the results depend on the processing

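No paired analysis was possible because each day is 1 library, and no replicate could be left out. The minimum of UMIs sets most of the counts of genes at least 2-fold higher and lower. At 10 UMIs they were 1418 (higher) in phagocytes, 1118 (higher) in endothelial cells, 1520 and 1163 in Gfap/Aqp4-gated, 1102 and 832 in Foxj1-gated and 1286 and 964 in Pdgfra-gated cells, 951 and 745 in fibroblasts and 737 and 996 in neutrophils. At 200 UMIs they were 556 (higher), 318 and 536, 112 and 202, 78 and 75, 54 and 50, 100 and 67, and 50 and 62, in the same order of classes. TMM scaling gave 838 lower genes in phagocytes, and C1qa-low phagocytes alone, chosen after seeing the data, gave 851. Without the highest cell of each gene, 934 were lower in Gfap/Aqp4-gated cells and 433 in neutrophils, and the mean over cells gave 386 higher in neutrophils. For Foxj1-gated cells, gate limits at 2 times gave 115 higher and 144 lower, and the joint gate, also added after seeing the data, 708 and 509. The share at day 3 over day 1 was 1.29 for phagocytes with limits at 2 times and 1.30 with cells thinned before gating. With limits divided by 2 it was 0.812 for endothelial, 0.118 for Gfap/Aqp4-gated and 0.522 for Foxj1-gated cells. Thinning before gating reversed it for Foxj1-gated cells (1.27) and fibroblasts (1.15). The ratio of Pdgfra-gated cells, 0.921 with an interval that spans 1, was 1.29 with limits at 2 times and 1.02 with cells past 2 gates given to the strongest; apart from the minimum of UMIs and the smaller or joint sets of cells, which follow from their construction, the cause was not tested. Of the alternatives, 138 gene counts lay within 1.5 times the reported one, and of the ratios of named genes 827 lay within 1.5 times the reported ratio, 139, of 64 genes, moved further and 0 changed direction. Among those 139, P2ry12 (log2 ratio 0.81) and Ccl5 (-0.9998), both in C1qa-low phagocytes, came under 2-fold. Ranking with 100 CPM added kept 10 of 20 leading genes in phagocytes and, of 12 in each other class, 7 in endothelial cells, fibroblasts and neutrophils, 5 in Foxj1-gated and 3 in Gfap/Aqp4-gated and Pdgfra-gated cells. Of the list medians, 1306 lay within that distance and 99 moved further, among them alternative activation in phagocytes with a C1qa UMI (-0.67), S phase genes in C1qa-low phagocytes (0.08), G2 and M phase genes in phagocytes without cycling cells (0.28), homeostatic microglia genes in phagocytes by the mean over cells (1.26), reactive astroglia genes in Foxj1-gated cells without cells over 3 times the median UMIs (-2.01) and chemokines in Pdgfra-gated cells by the mean over cells (-1.63). Depth limits the Pdgfra-gated cells, with 63 and 73 cells, and the fibroblasts and Gfap/Aqp4-gated cells at day 3, where single cells held large parts of some genes' UMIs.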
